A study of Arabidopsis thaliana with 4 samples.

Results

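Isolated tandem poly(A) sites are cleavage sites of a gene that lie at least 100 nt from the nearest other site measured in the same gene. They were chosen from the in vivo poly(A) table by their coordinates alone, so no SHAPE score took part in the choice. Of 6605 windows of 3338 genes, 86 windows of 61 genes met the distance. Each window spans 100 nt with the poly(A) site at nucleotide 51, called position 0 here, although the true cut may lie 1 nt from it. Windows of isolated sites share no nucleotide with any other site of their gene. Of the 86 sites, 35 came from the first row of their gene in the table, the earlier row of the plots, and 51 from a later row. In 23 genes the first row and a later row were both isolated, in 12 genes the first row alone, and in 26 genes a later row alone.

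The plants were 5-day-old Col-0 seedlings of Arabidopsis thaliana, the wild-type accession, and whole seedlings were used, so cells of many types are mixed. In the in vivo condition living seedlings received NAI at 100 mM for 15 min at 22 °C. In the deproteinized condition nuclei were lysed, protein was removed, and the RNA was then treated with NAI for the same time at the same temperature. Each condition had a (-)SHAPE control in which NAI was left out, and RNA came from nuclei in all 4 groups. NAI acylates the 2′-hydroxyl of flexible nucleotides, reverse transcription stops beside them, and the SHAPE reactivity is a relative score of those stops. The deposited tables hold 1 profile per condition and do not separate biological replicates, so no test over samples was possible. Every interval given is a 95% t or exact binomial interval over sites or genes.

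Cleavage and polyadenylation end most plant mRNAs. The processing complex reads an A-rich near upstream element, of which AAUAAA is the best known form, a U-rich stretch around the cut, and the cut itself, usually after a pyrimidine and before or at an adenosine. Sites far apart in one 3′ UTR give mRNAs with 3′ UTRs of different length, which can carry different binding sites for proteins and small RNAs. Reactivity was read in the stretch from -28 to -17, where the near upstream element lies, and in the stretch from -4 to +1 around the cut. The study chose both stretches on these same data, so a score above the flanks there is not independent evidence of their place.

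Sequences of 30 nt from -28 to +1 show both stretches: the first 12 letters are -28 to -17 and the last 6 are -4 to +1. They were read from the RefSeq genome TAIR10.1 in the direction of the transcript, with T for U, and capitals mark nucleotides with an in vivo score of at least 1.2 on the scale from 0 to 2. Shown first are genes in which both rows were isolated and which the report describes singly, each with its first and its later site.
AT5G63370 first site (chr5:25384633-25384662, minus strand): ctTTaAtggaagagatcTcAGTattCActt
AT5G63370 later site at 439 nt (chr5:25384194-25384223, minus strand): agctaagctaaatcaagttcatttcAATAa
AT5G63370 later site at 758 nt (chr5:25383875-25383904, minus strand): aaacgaGgtttctaaattagttttCtcTAt
ZW9 first site (chr1:21612292-21612321, minus strand): ttCaAtAATaAtgagttcgaGctttcctaT
ZW9 later site at 132 nt (chr1:21612160-21612189, minus strand): gggtAcGtaatcCAttCacattTCctttta
TDT first site (chr5:19287617-19287646, minus strand): ggttAATAcAGatttgtgtgttCTtcttcc
TDT later site at 251 nt (chr5:19287366-19287395, minus strand): gtCtattgaaTaAtatgCTtatAatcGtaA
PYL7 first site (chr4:448371-448400, plus strand): tGaaAtGatgAacCcttgccccttcTtgta
PYL7 later site at 110 nt (chr4:448481-448510, plus strand): ActcttaTaggagCtaagcctttctTcTTG
CAM1 first site (chr5:15004590-15004619, minus strand): tGTaATGgaaaatCaagTAAGttGgaTtGa
CAM1 later site at 108 nt (chr5:15004482-15004511, minus strand): aTaGagatGaaaaatatggctttaagCtgA

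The next set shows the genes in which only the later row was isolated and in which both windows were best resolved, with no score between the lowest and the highest held by more than 2 of 100 nucleotides. The capitals have the same meaning.
MEE14 first site (chr2:6921020-6921049, minus strand): cTtGatgttcgCcaatgtTGAatttgTTta
MEE14 later site at 455 nt (chr2:6920565-6920594, minus strand): tatTgccaTAgAAatgtggttgTTaTtgct
NUDT7 first site (chr4:7489621-7489650, plus strand): aactttcttctatattattccgattCTAcA
NUDT7 later site at 165 nt (chr4:7489786-7489815, plus strand): aGtgttAccatAcActtggtttattcttcc
AT5G25280 first site (chr5:8774750-8774779, plus strand): TaCAtacACAtattgcttATtGaagcagAA
AT5G25280 later site at 710 nt (chr5:8775460-8775489, plus strand): aaagattcAATgaaatcatatttttaccat
SSP4 first site (chr5:18828452-18828481, plus strand): tgagataatggatgtgtacaaatgagttac
SSP4 later site at 704 nt (chr5:18829156-18829185, plus strand): gtcttaatataTtATacacGttTagtcaca

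The scores were scaled within each window. In 99.8% of in vivo windows exactly 5 nucleotides stood at 0, in 99.5% exactly 6 stood at 2, and the most frequent score in between, called the recurring score, was held by a median of 26 of the 100 nucleotides. In 197 of 6605 windows, 3 of isolated sites among them, no score in between was held by more than 1 nucleotide, which is counted as 1 nucleotide at the recurring score. A mean score is therefore a level relative to the rest of its own window. Scores at the recurring value do not rank nucleotides, and the RT-stop counts behind a score are unknown. The isolated sites had a mean window score of 0.778 ± 0.0835 (SD, n = 86) and held the recurring score at a median of 27.5 nucleotides, close to the 0.776 ± 0.0854 and 26 of the whole table.

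At -28 to -17 the isolated sites from first rows were more reactive than their surroundings, and for those from later rows the interval of this difference included 0. Over all 86 sites the stretch exceeded its flanks by 0.0766 ± 0.209 (SD, interval 0.0318 to 0.121), and it did so in 49 of them (56.98%) against 54.4% of all windows. The first-row sites scored from 0.372 to 1.42 in this stretch with a median of 0.910, and their flanks, 12 nt on each side, had a median of 0.799. The later-row sites scored from 0.257 to 1.15 with a median of 0.834, against 0.780 in the flanks. Values of the 2 kinds of row overlapped over most of their range, and the upper end belonged to first rows.

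The difference between the stretch and its flanks averaged 0.153 ± 0.252 (SD, interval 0.0661 to 0.240, n = 35) at first-row sites. It averaged 0.0243 ± 0.155 (interval -0.0193 to 0.0680, n = 51) at later-row sites. Over the whole table it was 0.0458 for first rows (interval 0.0385 to 0.0531) and 0.0253 for later rows, so the interval of the isolated first-row sites lay above the mean of all first rows. By count the step was smaller: the stretch exceeded its flanks in 22 of 35 first-row sites (62.9%, interval 44.9 to 78.5) against 56.4% of all first rows, and in 27 of 51 later-row sites (52.9%) against 52.4% of all later rows. The counts stayed near the background, and the mean was carried by the size of the positive values.

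The most reactive nucleotides followed the same order. Of the 420 nucleotides in this stretch of first-row sites, 31% scored at least 1.2 and 11.7% held the top score of 2. Of the 612 nucleotides of later-row sites, 19.3% and 6.21% did, and of all windows 21.4% and 6.78% did. At least 1 top score lay in the stretch of 23 of 35 first-row sites (65.7%) and 26 of 51 later-row sites, against 52.6% of all windows.

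Within the stretch itself adenosine content differed little between the 2 kinds of row. It was 36.9% of the stretch at first-row sites and 37.7% at later-row sites, while the mean score of these adenosines was 1.04 and 0.813. Uridines there scored 0.930 and 0.838 and guanosines 0.870 and 0.755. In the flanks adenosine made up 25.1% of nucleotides at first-row sites and 30.3% at later-row sites. The flank adenosines of both kinds scored the same, 0.815. The part of base content in the difference from the flanks was not tested. Folding of the sequence alone gave a mean probability of being unpaired of 0.468 and 0.476 in this stretch, a difference far below their SDs, 0.15 and 0.163.

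**Figure D1:**
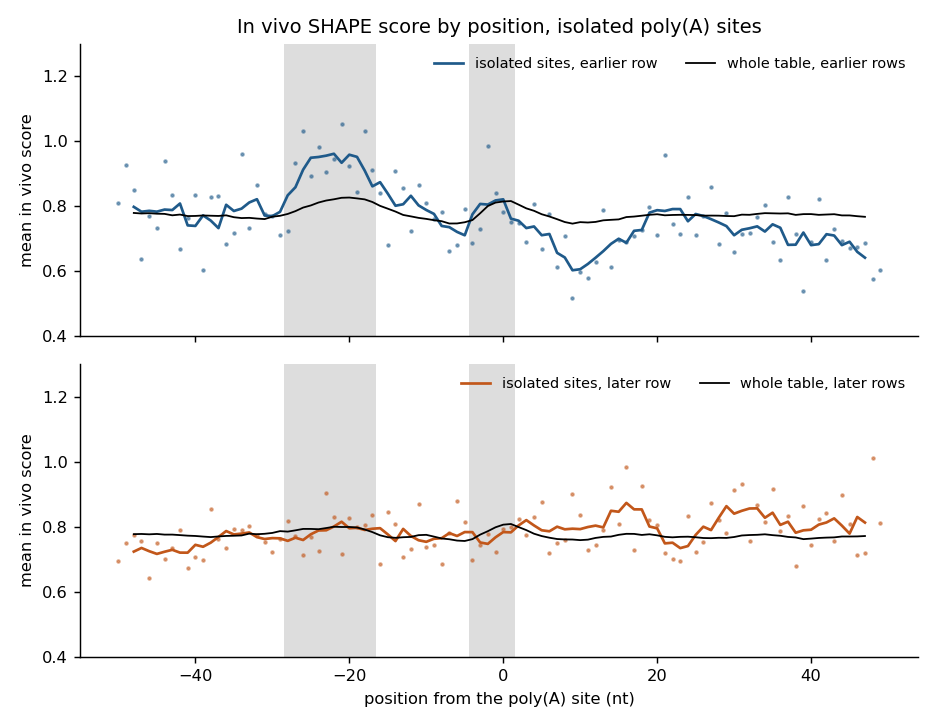
Mean in vivo score by position from the poly(A) site for isolated sites of first rows (top, n = 35) and later rows (bottom, n = 51). Points are means per position, coloured lines running means over 5 nt, black lines the running mean of all first or later rows, and grey bands the stretches -28 to -17 and -4 to +1. The first-row sites reach 0.962 at -22, where all first rows average 0.822, and fall to 0.604 at +9; the later-row sites show no comparable peak in the first band.

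**Figure D2:**
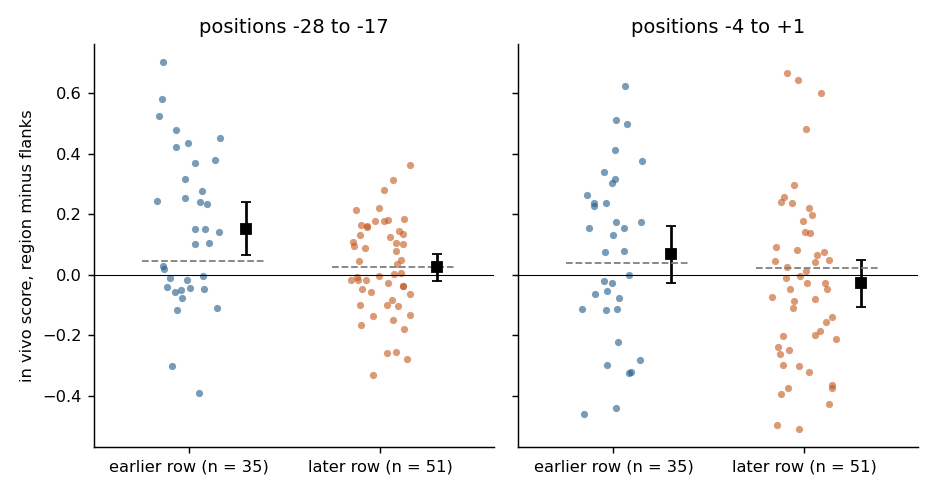
In vivo score of each isolated site in a stretch minus the mean of its flanks, for first and later rows. Each point is a site, black squares with bars are means with 95% t intervals, and dashed lines are the means of all first or later rows. At -28 to -17 the interval of first-row sites, 0.0661 to 0.240, lies above the dashed line, and in the other groups the interval reaches or crosses it.

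The 6 first-row sites with the highest difference in this stretch belonged to unlike genes, chosen here after their values were seen. THIC, which makes the pyrimidine part of thiamine and carries a thiamine pyrophosphate riboswitch in its 3′ UTR, stood highest with 1.42 in the stretch and 0.720 in the flanks. AT5G27950, annotated as a P-loop nucleoside triphosphate hydrolase, had 1.40 against 0.821. ZW9, a TRAF-like protein, had 1.29 against 0.760, and the first 12 letters of its sequence carry 6 capitals. AT4G14350, a kinase of the AGC family, differed by 0.478, AT5G11700 by 0.453 and PMEAMT, a phosphoethanolamine methyltransferase of choline synthesis, by 0.436. At the low end AT1G72510, a DUF1677 protein, had 0.623 against 1.01, a difference of -0.392.

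Around the cut, from -4 to +1, the interval of the difference from the flanks included 0 in isolated sites as a set. Over all 86 sites the difference averaged 0.0110 ± 0.280 (interval -0.0490 to 0.0710), and the stretch exceeded its flanks in 41 (47.7%) against 52.2% of all windows. First-row sites scored from 0.404 to 1.37 with a median of 0.767, and later-row sites from 0.283 to 1.43 with a median of 0.725. The difference from the flanks averaged 0.0677 ± 0.278 (interval -0.0276 to 0.163, n = 35) at first-row sites and -0.0279 ± 0.277 (interval -0.106 to 0.0501, n = 51) at later-row sites. Both intervals include 0 and the means of all first rows, 0.0384, and all later rows, 0.0242. The stretch exceeded its flanks in 19 of 35 first-row sites (54.3%) against 53.4% of all first rows, and in 22 of 51 later-row sites (43.1%, interval 29.3 to 57.8) against 51% of all later rows. Both stretches exceeded their flanks in 12 first-row sites and 11 later-row sites, 26.7% of isolated sites together against 29.7% of all windows.

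The later-row sites were not alike, and the division ran along whether the first row of the gene was isolated too. This split follows the coordinates but was made after the values were seen, so its values are a description, with no interval or test. Of the 25 later-row sites whose gene also had an isolated first row, 7 lay below their flanks around the cut, with a mean difference of 0.111 ± 0.282. Of the 26 whose first row had another site nearby, 22 lay below, with a mean of -0.162 ± 0.199. The shares above the flanks were 72% and 15.4%, against 51% of all later rows. The second kind came from genes with more measured sites, 4.15 on average against 2.16. The split itself requires this in part, since such a gene must have at least 3 measured sites. The second kind also held the recurring score at 23.4 nucleotides on average against 32.4. The part of the site number or of the recurring score in the difference was not tested.

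In the 26 genes with only a later isolated site those low values can be set beside the first rows of the same genes, again as a description. The first rows averaged 0.114 ± 0.307 above their flanks and the isolated later sites lay at -0.162 ± 0.199. The difference per gene was 0.276 ± 0.395 (SD, n = 26), and the first row was higher in 21 of 26 genes (80.8%) against 50.7% of the 1506 genes with at least 2 rows. First and later rows also differed in the recurring score, which took 12.6 nucleotides of the first windows and 23.4 of the later ones, whereas over all genes with at least 2 rows these were 23.6 and 24.8. Its part in the difference was not tested.

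The best resolved of these genes, in which no score in between was held by more than 2 nucleotides of either window, were MEE14, NUDT7, AT5G25280 and SSP4, and in each the first row was the higher one in vivo. NUDT7, a nudix hydrolase that acts on ADP-ribose and NADH, scored 1.19 around the cut of its first site and 0.546 at the later site, with flanks of 0.595 and 0.783. The sequences above carry 4 capitals among the last 6 letters at the first site and 0 at the later. MEE14, known from a maternal effect embryo arrest mutant, scored 1.06 at the first site and 0.543 at the later, and AT5G25280, a serine-rich protein, 0.884 and 0.327. SSP4, a phosphatase of the SCP1-like family that acts on the tail of RNA polymerase II, had a cut below its flanks at both sites, with differences of -0.10 and -0.374.

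The other genes of this kind are named here after their values were seen. Largest among them were the differences of ATMIN7, a guanine nucleotide exchange factor of vesicle traffic, at 1.254, and TPL, the TOPLESS corepressor, at 0.792. ACBP3, an acyl-CoA-binding protein, followed with 0.724 and NFU1, a plastid scaffold for iron-sulfur clusters, with 0.623. The later sites of TPL, ACBP3 and NFU1 lay past the annotated end of their genes, in windows that overlap another annotated gene. Those windows held the recurring score at 43, 37 and 16 nucleotides. The opposite order was found in CIPK1, a kinase regulated by calcium sensors, with -0.284 at the first and 0.256 at the later site. It was also found in the uncharacterized AT1G15400, the ubiquitin-specific protease UBP13, the pectin methylesterase PME3 and the ethylene response factor ERF7.

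In the 23 genes in which both rows were isolated, the cut was the more reactive at the first row in some and at the later row in others. First rows averaged 0.0878 ± 0.280 above their flanks and later rows 0.103 ± 0.275. The difference was -0.0153 ± 0.349 (interval -0.166 to 0.135, n = 23), and the first row was higher in 10 of 23 genes (43.5%) against 50.7% of all genes with at least 2 rows. The SD over genes was many times the mean, so single genes differed strongly in either direction. Over all 49 genes with an isolated later site the difference was 0.139 ± 0.398 (interval 0.0248 to 0.253), with the first row higher in 31, and it rested on the 26 genes above.

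At -28 to -17 the first row of the 23 genes scored higher than the later one, 0.915 ± 0.215 against 0.775 ± 0.156. The difference of these scores was 0.139 ± 0.274 (interval 0.0206 to 0.258), and 16 of 23 genes shared its direction. These scores are levels within 2 separately scaled windows, and no share over all genes was computed for them. Taken relative to the flanks the difference was 0.10 ± 0.313, its interval of -0.0353 to 0.235 included 0, and the first row was higher in 15 of 23 genes (65.2%) against 52.8% of all genes with at least 2 rows. The later site lay downstream on the transcript in 22 of the 23 genes. The exception was CDF3, a DOF transcription factor, whose later row lay 124 nt upstream and had the more reactive stretch, 0.951 against 0.796.

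**Figure D3:**
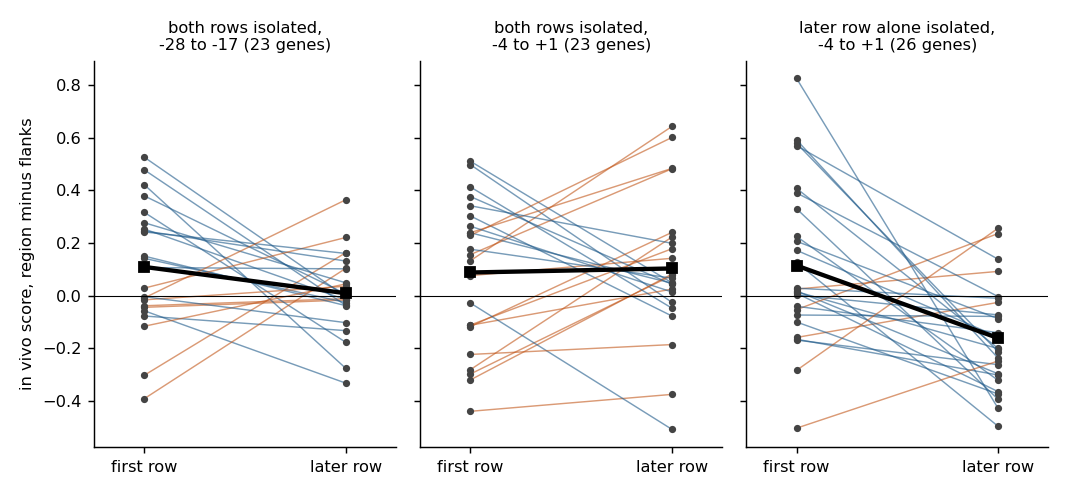
Score of a stretch minus its flanks in the first row and the isolated later row of each gene, in vivo. Each pair of points is a gene, blue lines mark genes with the higher value in the first row and orange lines the reverse, and black squares are means. In the right panel 21 of 26 lines are blue and the mean passes from 0.114 to -0.162; in the middle panel 10 of 23 are blue and the means are 0.0878 and 0.103.

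Genes with little recurring score show how the sites of one 3′ UTR can differ. AT5G63370, a protein kinase with 3 isolated sites, held the recurring score at 2, 3 and 10 nucleotides, the fewest of the genes with both rows isolated. Its cut scored 0.915 at the first site, 1.33 at 439 nt and 1.10 at 758 nt, against flanks of 0.759, 0.662 and 0.799. All 3 cuts stood above their flanks and the first one least. At the site at 439 nt the 4 capitals in the printed sequence are neighbours, an AATA that ends at position 0, and the stretch from -28 to -17 had none and a mean of 0.257, the lowest of all isolated sites.

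In ZW9 the order was reversed. The cut of the first site scored 0.767 with flanks of 0.796, and that of the later site 0.351 with flanks of 0.860, a difference of -0.509, the lowest among isolated sites. The stretch from -28 to -17 stood 0.526 above its flanks at the first site and at -0.00371 from them at the later one. AT1G78230, annotated as an outer arm dynein light chain, had a cut 0.511 above its flanks at the first site and 0.0485 at the later one. The largest difference of the 23 genes was that of RIN4, a regulator of plant immunity named after its values were seen, with 0.498 and -0.0257 in windows with 44 and 39 nucleotides at the recurring score.

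The largest differences in the other direction were found in PYL7, TDT, RPL5B and AT1G72510. PYL7, an abscisic acid receptor, scored 0.792 around the first cut and 1.43 at the later one, 110 nt downstream, while its stretch from -28 to -17 went from 1.15 to 0.612. The gene had its reactive stretch at the first site and its reactive cut at the later one. TDT, the malate carrier of the vacuole membrane, scored 0.534 and 1.03 around its cuts and 1.22 and 0.755 in the stretch from -28 to -17. RPL5B, a protein of the large ribosomal subunit that binds 5S rRNA, moved from -0.320 to 0.0818 around the cut, and AT1G72510 from -0.298 to 0.0764.

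AT4G31450, a RING/U-box protein, had reactive cuts at both sites, with 1.01 and 1.42. CAM1, a calmodulin and thus a calcium sensor, had a difference of -0.118 at the first cut and 0.240 at the later. AT5G47730, a Sec14-like phosphatidylinositol transfer protein, had unreactive cuts at both sites, with differences of -0.440 and -0.376. TAF15b, a TBP-associated factor with RNA-binding domains, differed little, with 0.176 and 0.0663, and its later site had the more reactive stretch from -28 to -17, 1.00 against 0.722. AtkdsA1, which makes the cell wall sugar acid KDO, had 0.303 at its first cut and -0.109 and -0.0462 at later sites 207 and 328 nt away, in windows with 46, 32 and 49 nucleotides at the recurring score.

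Downstream of the cut the 2 kinds of isolated site also parted. From +2 to +13 first-row sites scored 0.677 ± 0.172, a difference of -0.0884 from the mean of their own window (interval -0.139 to -0.0382), and 25 of 35 lay below it. Later-row sites scored 0.794 ± 0.180 there and lay 0.00708 above their window mean. Over the whole table this difference was -0.0121 in first rows and -0.00635 in later rows, and 57.1% of first rows were below. The stretch was picked after the profile was seen, and it forms the downstream flank of the cut, so the first-row difference of 0.0677 around the cut contains it. From +14 to +49 the scores were 0.718 ± 0.171 and 0.816 ± 0.147.

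The sequence downstream differed in the same order. Past the site, G and C made up 36.4% of nucleotides at first-row sites (interval 34.02 to 38.7) and 31.97% at later-row sites (interval 30.3 to 33.7), with 33.4% in the whole table. Adenosine made up 26.1% and 32.9%. As in the whole table, adenosines of the isolated sites had the highest mean score, 0.840, followed by uridines with 0.780, guanosines with 0.748 and cytidines with 0.688. The part of base content in the downstream scores was not tested.

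The hexamer AATAAA was found between -40 and -10 in 4 of 86 isolated sites (4.65%, interval 1.28 to 11.5), searched on the transcript strand with all 6 letters inside these bounds. It was found in 6.97% of the 6598 windows of the table with a sequence, in 10.2% of all first rows and 3.70% of all later rows. Allowing any single-base variant gave 33 of 86 sites (38.4%) against 39.4%, with 12 of 35 first-row sites (34.3%) against 46.6% of all first rows and 21 of 51 later-row sites (41.2%) against 31.9% of all later rows. The sequences of these 4 sites from -40 to -11, with the hexamer in capitals, are shown to place it beside its scores, which ranged widely.
THIC first site (chr2:12669897-12669926, plus strand): agtcagagtcagcAATAAAgacaatctaag
AT1G05870 first site (chr1:1772227-1772256, minus strand): ataaaagatatcacttgAATAAAaccatca
AT4G10080 later site (chr4:6300069-6300098, minus strand): aaccactacaatggaAATAAAgaccctaca
MKK5 later site (chr3:7447310-7447339, plus strand): attggataattctcattAATAAAgcttctt
The hexamer scored 1.73 in THIC, where the window averaged 0.787, and 1.81 in AT1G05870, where it averaged 0.666. In MKK5, a MAP kinase kinase of immune signalling, it scored 1.136 against 0.598 and in AT4G10080 0.931 against 0.805. It stood above the window mean in all 4 sites, by 0.687 on average with an interval of -0.0301 to 1.40 that includes 0, and in 308 of 460 windows of the table (66.96%), by 0.143.

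At position -1 adenosine was found in 1 of 35 first-row sites (2.86%) and 10 of 51 later-row sites (19.6%), with 16.9% in the table, and guanosine in 9 and 3, with 12.3%. These single-base counts depend on which nucleotide of the window is taken as the site, which is uncertain by 1 nt. Both strands had the same register over the whole table, with adenosine at 32.8% of plus-strand and 33.6% of minus-strand windows at position 0 and at 57.8% and 59.7% at +1. Position +1 was an adenosine in 48 of 86 sites (55.8%) against 58.7%. The annotation placed 80 of the 86 sites in a 3′ UTR, and 6 sites, all of later rows, past the annotated end of the gene. Windows of 17 sites overlapped another annotated gene, counted on either strand, and which gene the reads there came from was not examined. These counts are not set beside those of all windows, so they mark no trait particular to isolated sites.

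The distance to the nearest other site ran from 100 to 751 nt with a median of 119 nt, and 16 sites were 200 nt or more from it. Just inside the limit, from 100 to under 110 nt, 29 sites had a mean difference of -0.0431 ± 0.246 around the cut, and 10 of them were above their flanks. Just outside, from 90 to under 100 nt, 33 windows had 0.209 ± 0.276, with 25 above. These shares were 34.5% and 75.8%, against 52.2% of all windows. The windows just outside include first rows of genes with only a later isolated site, among them ATMIN7 with the highest value, 0.826. The contrast at the limit is therefore not separate from the split made after the values were seen. Inside the limit the mean was 0.0335 ± 0.270 from 110 to under 200 nt (n = 41) and 0.0515 ± 0.358 at 200 nt or more (n = 16). Across the 86 sites distance and this difference had a Pearson r of 0.0648 and a Spearman rho of 0.104, and sites of one gene often share their distance.

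After removal of protein 21 of the isolated sites, of 19 genes, were measured as well, 15 of first rows and 6 of later rows. Around the cut they averaged -0.0128 ± 0.306 in vivo and 0.00494 ± 0.243 in the deproteinized condition. The difference was 0.0178 ± 0.348 (interval -0.141 to 0.176), and 11 of 21 sites were higher without protein, against 49.8% of the 992 windows in both tables. At -28 to -17 the values were 0.136 ± 0.262 and 0.105 ± 0.210, a difference of -0.0302 ± 0.299, with 11 of 21 higher against 49.7%. The sign relative to the flanks was the same in both conditions for 9 of 21 cuts (42.9%), against 55.9% of the 992 windows. For the upstream stretches it was the same in 11 of 21 (52.4%), against 60.2%. Within a window the correlation of the 100 scores between conditions averaged 0.219, against 0.164 over all shared windows, and neighbouring nucleotides of a window are not independent.

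**Figure D4:**
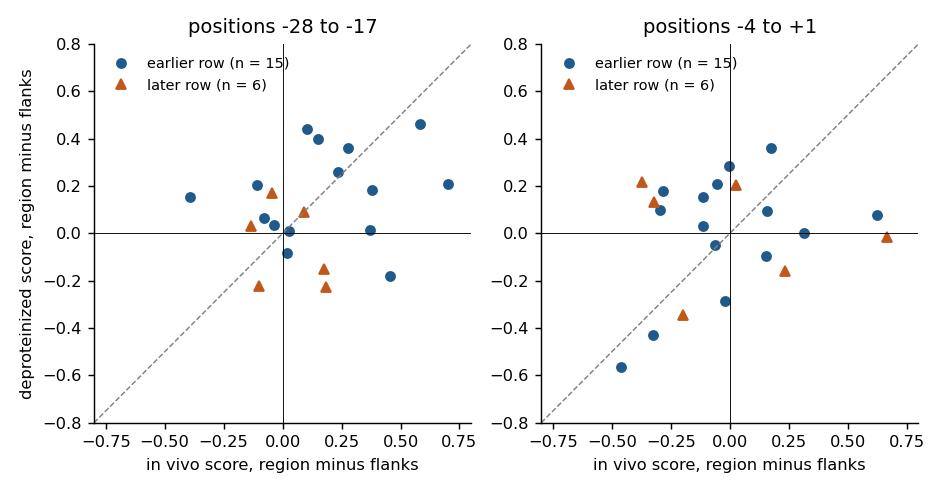
Score of a stretch minus its flanks in vivo and in the deproteinized condition for the 21 isolated sites in both tables, in score units. Circles are first-row sites (n = 15), triangles later-row sites (n = 6), and the dashed line marks equal values. The points scatter on both sides of the line, with 11 of 21 above it in each panel.

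Single sites differed far in either direction, with 1 profile per condition and no spread to set them against. The cut of THIC, the only isolated site among 18 listed genes of 3′ end processing and regulation, stood 0.626 above its flanks in vivo and 0.0789 without protein, and its stretch from -28 to -17 stood at 0.703 and 0.209. The cut of AT5G63370 at 439 nt had 0.666 and -0.0153 and that of its first site 0.156 and 0.0962. In AT2G02570, annotated as a nucleic acid-binding protein and the only other gene with a first and a later isolated site in both tables, the first cut had -0.113 and 0.153 and the later 0.0246 and 0.203. The later cut of SSP4 had -0.374 in vivo and 0.219 without protein, that of AT5G25280 -0.322 and 0.133, and that of MEE14 -0.200 and -0.345. The first cuts of these genes, which are not isolated, stood without protein at -0.452 in SSP4, 0.295 in AT5G25280 and 0.793 in MEE14. The first cut was thus still the higher one in AT5G25280 and MEE14, and in SSP4 the order was the reverse of that in vivo.

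By words in the annotated product, 5 of the 61 genes were kinases, namely CIPK9, CIPK1, MKK5, AT4G14350 and AT5G63370 (8.2% against 6.80% of all genes in the table). The list of transcription factor words caught BIM1 and HB5 (3.28% against 4.34% of all genes in the table). That of ubiquitin caught UBC35 and UBP13 (3.28% against 2.097%). Ribosomal, photosystem and transporter words caught RPL5B, LHB1B2 and TDT, 1 gene each (1.64%, against 2.28%, 0.479% and 1.32%). No gene was caught by RNA-binding (with the hyphen), RNA recognition or splicing, which caught 56 of 3338 genes in the table (1.68%). Among others, the words miss CDF3, ERF7, ZAP1 and TAF15b, whose product names do not hold them. They also miss AT2G02570, whose product is written as RNA binding without the hyphen.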

How the data were processed

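Reactivity scores of nuclear RNA in vivo and after deproteinization were deposited as 1 profile per condition. Per the submitters' processing notes and the methods, the authors checked reads with FastQC 0.11.5, trimmed them with cutadapt 1.14, mapped them to TAIR10 with HISAT2 2.1.0 and kept unique alignments. RT-stops were counted from reads that crossed or lay past a poly(A) site, so a read at a first site may come from a transcript cut later, and the deposited score runs from 0 to 2. The formula of the score is not given in the sources used here, and read depth is unknown, so intervals cover the spread over sites only, not between plants. Splicing tables were not used here.

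The first and later rows of a gene were taken in file order. Scores run 5′ to 3′ on the transcript on both strands. Sequences and annotation came from RefSeq TAIR10.1, and a strand was found for 6598 of 6605 windows. A stretch was set against 12 nt on each side. Where a gene had several isolated later rows, their mean was used. Unpaired probabilities came from ViennaRNA 2.7.2 at 37 °C without reactivities. The calculations ran in Python 3.11.15, NumPy 2.4.6 and SciPy 1.17.1 and were tested on simulated windows.

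Genes were named by a rule: the 8 genes with both rows isolated and the least recurring score, the 4 largest and 4 smallest differences around the cut among genes at or under the median recurring score, listed genes of 3′ end processing, genes in both tables and the 4 largest distances. Others are said to be chosen after their values were seen, or stand as examples of a count. The sites, regions and lists were chosen with earlier results of these data known. Alternatives were zeros or the recurring score as missing, other flanks, the site at nucleotide 50 or 52, 1 strand and a distance of 200 nt. Further ones were genes with exactly 2 rows, medians, the share of scores of at least 1.2, the nearest later row and windows with no missing value. Windows with at most 26 nucleotides at the recurring score were added after seeing the data.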

Additional observations from a re-analysis of the deposited data

How the results depend on the processing

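Of 192 recomputed values, 171 were counted as unchanged, in general because they stayed within the interval of the reported one. For the share of high scores a kept direction was enough, and any value counted where the reported interval included 0. Keeping only windows with no missing value repeats the reported value, so its part of the count is no check. With medians the interval is still that of the mean. The difference at -28 to -17 of first-row sites kept its sign under all 13 alternatives, with scores from 0.114 to 0.313, and its interval excluded 0 under 11. In the 26 genes split off after the values were seen, the difference around the cut ran from 0.164 to 0.363 under 12 alternatives, all computed on those same genes, which is no support for it; none of these genes has exactly 2 rows, so that setting was not run there.

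With a distance of 200 nt the cut of first-row sites reached 0.192 (n = 5), the gene pairs -0.415 (n = 2), the stretch from -28 to -17 0.124 over all sites and 0.313 at first rows, the window mean 0.756, the change on deproteinization at -28 to -17 -0.180 and the share with AATAAA 12.5%. With genes of exactly 2 rows the cut stood at 0.0840 over all sites and 0.0937 at later rows. The difference over all genes with an isolated later site turned to -0.0194, as the 26 genes drop out. The change on deproteinization was 0.271 around the cut and 0.120 at -28 to -17, over 6 sites that include both of AT2G02570. Around the cut all 6 were higher without protein, against 11 of all 21 isolated sites. No share over all windows was computed for genes with exactly 2 rows. No site had AATAAA, 0 of 42, which allows up to 8.41%. Any single-base variant gave 38.4%.

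With at most 26 nucleotides at the recurring score the cut stood at -0.0536 over all sites and -0.0503 at first rows, the stretch at later rows reached 0.0703, the difference over all genes with an isolated later site 0.278 and the window mean 0.760. Without scores of 0 the window mean was 0.819 and without the recurring score 0.857. The cut of all sites kept its sign under 9 of 14 alternatives, with every interval including 0. No paired analysis was possible because each condition is 1 profile without replicates; only rows of a gene and windows of both tables were paired. The windows hold no missing value. Unknown depth limits all single values.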
